A study of Mus musculus with 6 samples.

Results

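The genes described here are 46 collagen, matrix and fibroblast genes that include Comp, the cartilage oligomeric matrix protein. Members were chosen by name, with earlier results of these data known. Every gene probe whose accession mapped to 1 of the 46 symbols was taken, whatever its signal. Shares of all genes printed beside counts of members are therefore a background and no test of the group. All 46 genes had a probe, 61 probes in all of the 55681 gene probes on the array, and all 46 passed the filter on dim probes, so that they made up 46 of the 22503 genes and unnamed transcripts tested. Both genotypes were C57BL/6 MMTV-PyMT mammary tumor cells, in which the mouse mammary tumor virus promoter drives the polyomavirus middle T antigen. Late carcinoma cells that were RANK+/+ or RANK-/- (lacking the NF-kB activating receptor RANK, the product of Tnfrsf11a) were grafted orthotopically into syngeneic C57BL/6 mice, and live cells without the leukocyte protein CD45 were sorted from the grown tumors. The hosts were wild type, so that host stroma and its fibroblasts carried RANK in both groups, and the labels gave no age for the animals. Each of the 6 two-color arrays held 1 RNA of each genotype, in 3 pairs of RNAs with 2 technical replicate arrays (A and B) each. The labels name no tumor of origin for each RNA, so that p-values measure only the spread between these pairs.

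Fibroblasts secrete fibrillar collagens as procollagens, which are trimmed outside the cell, assemble into fibrils and are crosslinked by lysyl oxidases. Small leucine-rich proteoglycans bind the fibrils and set their spacing, fibrillins and fibulins build microfibrils and elastic fibers, and matricellular proteins connect the matrix with cell receptors and growth factors. In mammary tumors this matrix is laid down mainly by stromal fibroblasts. Comp is a pentameric thrombospondin of cartilage and tendon that binds collagens.

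Tnfrsf11a, the deleted gene, had 1 probe (NM_009399), and in each channel of every array its signal exceeded the background. Its log2 ratio of the channel labeled RANK-/- over the channel labeled RANK+/+ was 2.03, 1.15 and 1.76 in pairs 1, 2 and 3 (mean 1.65 ± 0.45 SD, n = 3). Every pair thus had more Tnfrsf11a signal on the side labeled RANK-/-, which goes against the label, and where the probe lies relative to the deleted part was not given in the sources used here. Each direction below is therefore that of the labeled channel: "higher" means brighter in the channel labeled RANK-/-. In pair 1 the RNA labeled RANK-/- was in Cy5, and in pairs 2 and 3 it was in Cy3, so that a difference of pair 1 from the others cannot be told apart from a dye effect. Between 28926 and 32756 of the 55681 gene probes were well above background in a channel, and no spot was saturated. Epithelial markers of the sorted cells were present, with Epcam, Krt8 and Krt18 above background on all 6 arrays in both channels. Ptprc, which encodes CD45, exceeded the background on 5 of the 6 arrays for the RNAs labeled RANK-/- and on 4 of 6 for those labeled RANK+/+. Leukocyte RNA was still present: of 12 leukocyte genes listed, 10 were tested. Of these, 8 exceeded the background on all 6 arrays in both channels.

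Most collagen and matrix genes were higher, but by amounts that differed strongly between pairs. The median log2 ratio of the 46 genes was 0.22 in pair 1, 0.26 in pair 2 and 1.31 in pair 3, against 0.02, -0.01 and 0.00 for all genes tested. The mean over pairs was above 0 for 41 of the 46 genes and below 0 for 5, and 51.0% of all genes had a mean above 0. Higher in all 3 pairs were 17 of the 46 genes, beside a background of 9.95% of all genes tested. These were Comp, Col1a1, Col1a2, Col5a1, Col6a2, Col6a3, Thbs2, Fmod, Aspn, Fbln1, Mfap2, Mfap4, Mfap5, Loxl1, Loxl2, Pcolce and Pdgfra. Only Ctgf was lower in all 3 pairs, and 9.65% of all genes were. The genes were measured in bulk RNA, in which fewer cells of a type and less RNA per cell cannot be told apart.

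None of the 46 genes was called by limma at an adjusted p of 0.05 (adjusted p of 1.00 for each), and 0.0% of all 22503 genes were. At an unadjusted limma p under 0.05, 8 of the 46 genes were higher (Comp, Col1a2, Col6a3, Fmod, Fbln1, Mfap2, Mfap4 and Pcolce), beside 1.66% of all genes, and 1 was lower (Ctgf), beside 1.22%. The rank product, which scores genes by the product of their ranks in the 3 pairs, called Comp higher at a proportion of false predictions (pfp) under 0.05, with 0.0444% of all genes called higher. It called none of the 46 genes lower, beside 0.04% of all genes. With 3 pairs an exact two-sided sign-flip test of a single gene cannot give a p below 0.25.

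The spread lay between pairs of RNAs, not between technical arrays. Arrays A and B of a pair differed by a median of 0.0569 on the log2 ratio scale over these genes and by at most 0.327, and 42 of the 46 genes had the same sign on both arrays of every pair. The SD between pairs had a median of 0.737 over the 46 genes and of 0.329 over all genes, and it was above 1 for 9 of the 46. For these counts of 42 and 9 the share of all genes was not computed. The counts of genes past 2-fold differed between pairs in the same way. In pair 1, 6 of the 46 genes were 2-fold or more higher and 1 was 2-fold or more lower, beside 3.66% and 2.84% of all genes. In pair 2 the counts were 7 higher and 2 lower, beside 2.45% and 2.37%. In pair 3 they were 29 higher and 1 lower, beside 4.91% and 3.01%.

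**Figure D1:**
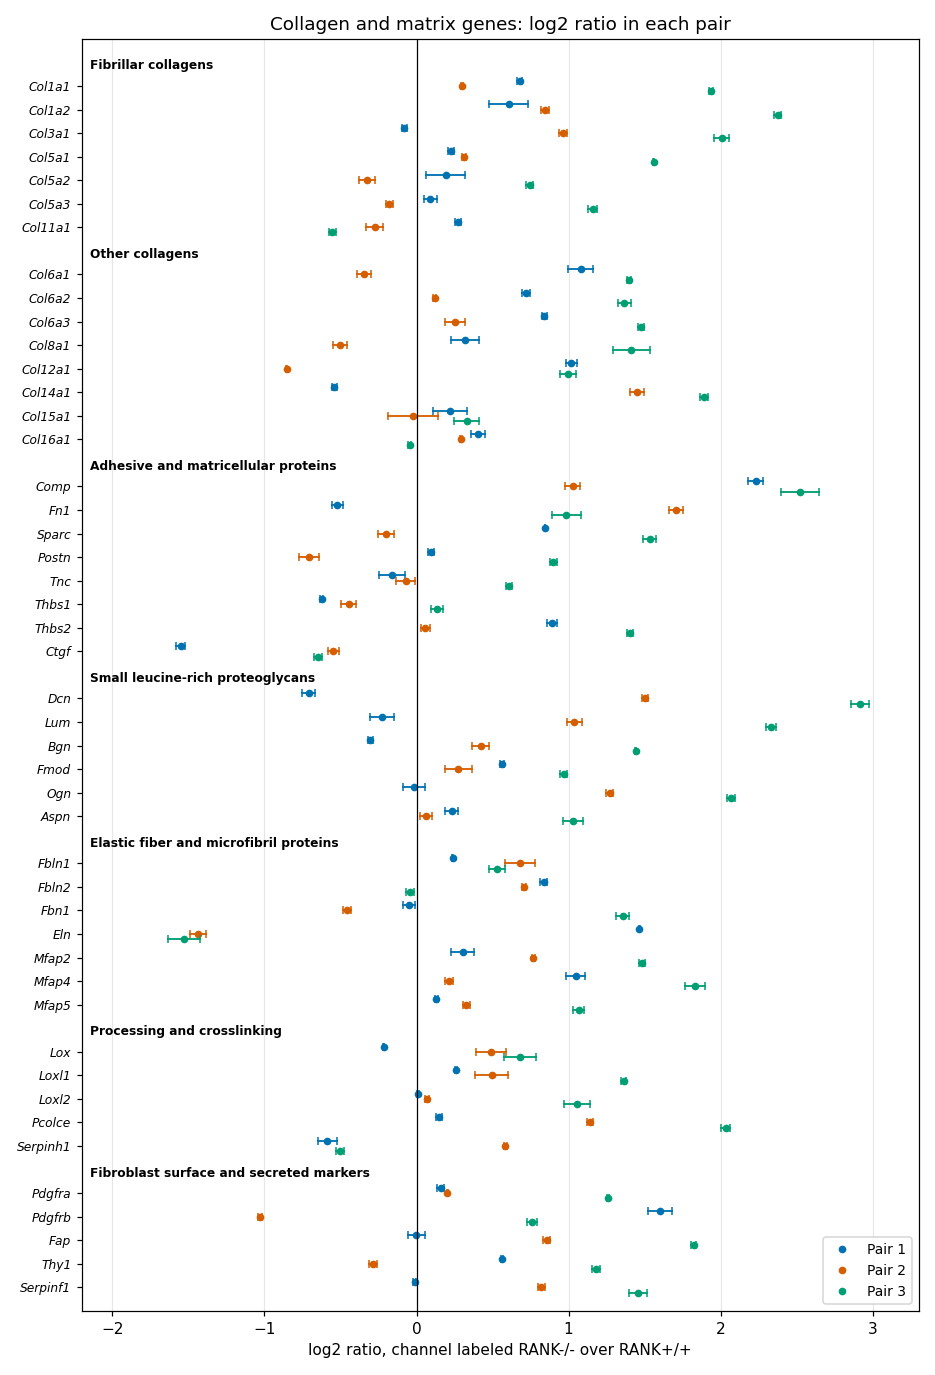
Log2 ratio of the channel labeled RANK-/- over RANK+/+ (horizontal axis) for each of the 46 genes (rows, by role group) in pairs 1, 2 and 3. Each dot is the mean of arrays A and B of a pair and the ticks are the individual arrays. Most genes lie to the right of 0 in pair 3, where 40 of 46 were above 0 and the median of all genes tested was 0.00. Comp lies right of 1 in every pair and Ctgf left of 0 in every pair.

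Comp had the highest mean log2 ratio of the 46 genes, 1.93 ± 0.79 (SD, n = 3; limma adjusted p 1.00; rank product pfp 0.0434), a 3.80-fold difference. Its log2 ratio was 2.23 in pair 1 (2.28 and 2.18 on arrays A and B), 1.03 in pair 2 (0.98 and 1.07) and 2.52 in pair 3 (2.65 and 2.39). Comp was the only member 2-fold or more higher in all 3 pairs, which held for 9 of the 22503 genes tested (0.04%), and its mean ranked 9th from the highest among all genes. The rank product call was lost without any 1 of the pairs, with a pfp of 0.252 without pair 1, 0.0702 without pair 2 and 0.442 without pair 3. It was also lost with the Agilent processed signals (pfp 0.151) and with the deposited series table (pfp 0.0534).

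The level of Comp differed more between pairs than between genotypes. Its normalized log2 intensity was 7.16, 12.29 and 8.04 in the RNAs labeled RANK+/+ of pairs 1, 2 and 3, and 9.38, 13.31 and 10.56 in those labeled RANK-/-. Both RNAs of pair 2 were thus far brighter than the other 4: the RNA labeled RANK+/+ of pair 2 exceeded that of pair 1 by 5.13 and that of pair 3 by 4.25 on the log2 scale, and it also exceeded the RNAs labeled RANK-/- of pairs 1 and 3 (by 2.90 and 1.73). The groups therefore overlapped in level although Comp was higher within each pair. The range of Comp over the 6 RNAs was 6.16 on the log2 scale, against 3.25 for the next of the 46 genes and a median of 1.47 over them, and it was the 4th largest of all genes tested. Thbs4, a related pentameric thrombospondin and the gene with the highest mean ratio on the list of cartilage and tendon genes, had log2 ratios of 2.02, 0.05 and 2.22. Its level was 7.66, 9.94 and 8.33 in the RNAs labeled RANK+/+ and 9.69, 9.98 and 10.55 in those labeled RANK-/-, so that among the RNAs labeled RANK+/+ it too was brightest in pair 2.

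**Figure D2:**
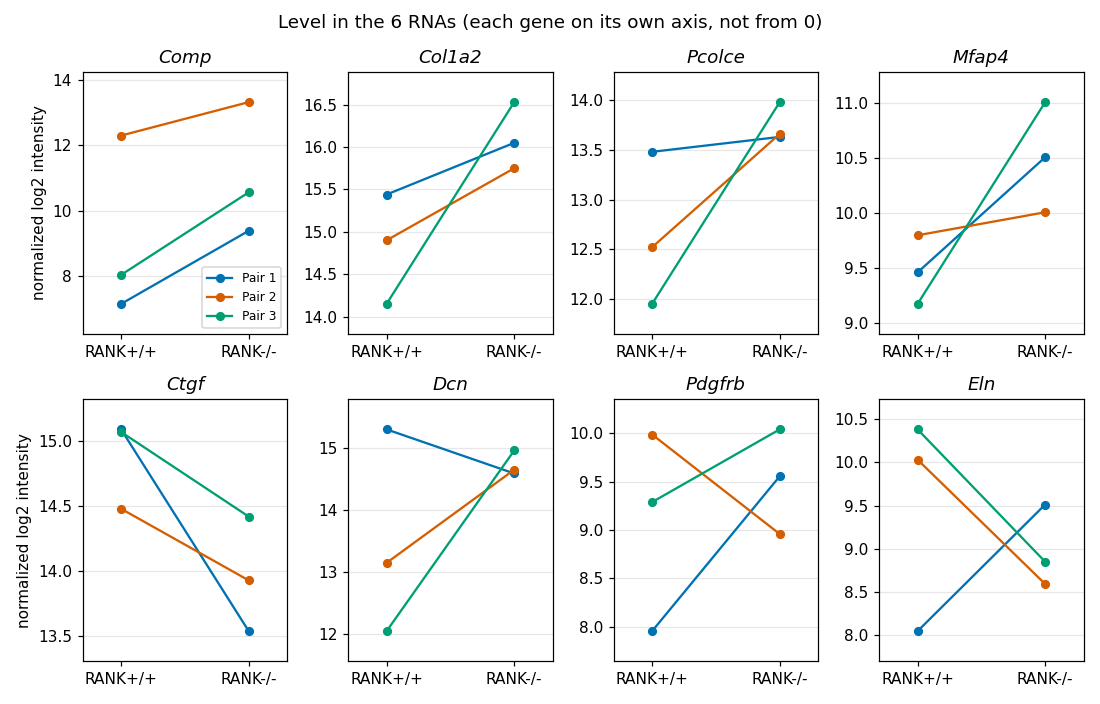
Normalized log2 intensity (vertical axis, a separate range for each gene and not from 0) of 8 genes in the 6 RNAs, with a line joining the RNA labeled RANK+/+ to the RNA labeled RANK-/- of the same pair. Comp is brighter on the side labeled RANK-/- within each pair, but both RNAs of pair 2, at 12.29 and 13.31, lie above the other 4. Dcn, Pdgfrb and Eln have lines of both directions.

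Of the 7 fibrillar collagens, 3 were higher in all pairs and none was lower in all pairs. The group had a median of 0.23 in pair 1, 0.30 in pair 2 and 1.56 in pair 3 (log2 ratio). Col1a2, the second chain of type I collagen, had log2 ratios of 0.61, 0.85 and 2.37 (mean 1.28 ± 0.96 SD, limma adjusted p 1.00). Its normalized log2 intensity was 15.44, 14.90 and 14.15 in the RNAs labeled RANK+/+ and 16.05, 15.75 and 16.53 in those labeled RANK-/-, so that the groups did not overlap. Col1a1, the partner chain of the type I trimer, had log2 ratios of 0.68, 0.30 and 1.94, and its groups did not overlap either. Col3a1, which forms type III fibrils and often copolymerizes with type I, had log2 ratios of -0.08, 0.96 and 2.01. Col5a1, a minor fibril collagen that controls fibril diameter, had log2 ratios of 0.23, 0.31 and 1.56. Its partners Col5a2 (0.19, -0.33 and 0.74) and Col5a3 (0.09, -0.18 and 1.16) were on the other side of 0 in pair 2. Col11a1, the related minor chain of type XI collagen, ran the other way in pair 3, with log2 ratios of 0.27, -0.27 and -0.55.

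The window before the start of Col1a2 is shown because it was, among the genes higher in all 3 pairs that have a window in the RefSeq promoter table, that with the highest mean ratio. It is the 250 bases before the RefSeq start (GRCm38.p6, chr6:4505368-4505617, plus strand), printed 5′ to 3′. Capitals mark matches on either strand to 3 motifs: the NF-Y motif CCAAT, the TATA box written as TATAAA, and the core of a Smad binding element, CAGAC.
Col1a2: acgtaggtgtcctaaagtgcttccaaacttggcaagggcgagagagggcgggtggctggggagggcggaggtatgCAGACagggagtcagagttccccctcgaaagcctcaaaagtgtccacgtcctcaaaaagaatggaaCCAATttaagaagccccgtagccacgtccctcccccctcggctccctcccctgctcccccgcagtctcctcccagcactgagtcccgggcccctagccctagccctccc
Its NF-Y motif began 109 bases before the start and its Smad core 175 bases before it. A table window was found for 27 of the 46 genes. The NF-Y motif was in 8 of these 27 and in 33.8% of all 32851 windows of this length, the TATA box in 5 and in 12.4%, and the Smad core in 16 and in 42.2%. No match overlapped another in the windows printed, and each is a match of letters only.

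Among the 8 other collagens, 2 were higher in all pairs and none lower in all pairs, and the median log2 ratio was 0.56, 0.05 and 1.38. Type VI collagen forms beaded filaments around cells from the products of Col6a1, Col6a2 and Col6a3. Col6a3 had log2 ratios of 0.84, 0.25 and 1.47 (mean 0.85 ± 0.61 SD), with levels of 11.43, 11.78 and 11.53 in the RNAs labeled RANK+/+ and 12.27, 12.03 and 13.00 in those labeled RANK-/- on the normalized log2 intensity scale. Its groups did not overlap, nor did those of Col6a2, whose log2 ratios were 0.72, 0.12 and 1.37. Col6a1, the neighbor of Col6a2 in the genome, had log2 ratios of 1.08, -0.34 and 1.40. Col12a1 and Col14a1 are related collagens that decorate the fibril surface, and they ran in opposite directions in pairs 1 and 2: Col12a1 had log2 ratios of 1.02, -0.85 and 0.99, and Col14a1 of -0.54, 1.45 and 1.89. The second probe of Col14a1 gave 0.02, 0.98 and 1.39. Col8a1, a short-chain network collagen, had log2 ratios of 0.32, -0.50 and 1.41. The ratios of Col15a1, a basement membrane zone collagen, lay between -0.02 and 0.33, and it was the only member whose probe did not exceed the background throughout (6 of 6 arrays for RNAs labeled RANK-/-, 3 of 6 for the others). Col16a1 had log2 ratios of 0.41, 0.29 and -0.05 by its brightest probe, and its other 2 probes gave -0.12, 0.16 and 0.18, and 0.46, 0.11 and -0.41.

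The window of Col6a3 (minus strand, GRCm38.p6, chr1:90843972-90844221) is shown in the same form. Among the genes higher in all pairs that have a window, only Col1a2 and Pcolce had higher mean ratios:
Col6a3: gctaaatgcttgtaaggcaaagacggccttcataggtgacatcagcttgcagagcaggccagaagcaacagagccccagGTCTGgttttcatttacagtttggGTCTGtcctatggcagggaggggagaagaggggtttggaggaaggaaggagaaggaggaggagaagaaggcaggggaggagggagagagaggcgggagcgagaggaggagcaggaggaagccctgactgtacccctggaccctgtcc
Its capitals are the Smad core on the opposite strand, 171 and 147 bases before the start, and it held neither of the other motifs.

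The 8 adhesive and matricellular genes held genes of both signs, with Comp and Thbs2 higher in all pairs, Ctgf lower in all pairs and medians of -0.03, -0.14 and 0.94. Ctgf (now Ccn2) encodes connective tissue growth factor, a secreted matricellular protein. Its log2 ratios were -1.55, -0.55 and -0.65 (mean -0.92 ± 0.55 SD, limma adjusted p 1.00). Its levels did not overlap, at 15.09, 14.48 and 15.07 in the RNAs labeled RANK+/+ and 13.54, 13.93 and 14.42 in those labeled RANK-/- (normalized log2 intensity). Thbs2, a thrombospondin that limits vessel growth, had log2 ratios of 0.89, 0.06 and 1.40, while Thbs1 had -0.62, -0.45 and 0.13. Fn1, fibronectin, had log2 ratios of -0.52, 1.71 and 0.99. Sparc, a collagen-binding glycoprotein, had 0.84, -0.20 and 1.53, and Postn, periostin, had 0.10, -0.71 and 0.90. The 2 other probes of Sparc gave 0.03, 0.29 and 1.32, and 0.54, -0.19 and 0.37. Tnc, tenascin C, had log2 ratios of -0.16, -0.07 and 0.61 by its brighter probe and of -0.09, -0.02 and 0.47 by the other.

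The 6 small leucine-rich proteoglycans had the highest group median in pair 3, 1.75 on the log2 ratio scale, against -0.12 in pair 1 and 0.73 in pair 2. Dcn, decorin, had log2 ratios of -0.71, 1.50 and 2.92 (mean 1.24 ± 1.83 SD, the largest spread among the 46 genes). Its normalized log2 intensity was 14.59, 14.65 and 14.96 in the RNAs labeled RANK-/- and 15.30, 13.15 and 12.05 in those labeled RANK+/+. The level of Dcn thus spanned 3.25 among the RNAs labeled RANK+/+ and 0.37 among those labeled RANK-/-. Lum, lumican, which lies next to Dcn in the genome, had log2 ratios of -0.23, 1.04 and 2.33. Ogn, osteoglycin, had -0.02, 1.27 and 2.06, and Bgn, biglycan, had -0.30, 0.42 and 1.44. Fmod and Aspn were the 2 members higher in all pairs: Fmod, fibromodulin, had log2 ratios of 0.56, 0.28 and 0.97 without overlap of the groups, and Aspn, asporin, had 0.23, 0.06 and 1.03. Aspn and Ogn lie on either side of Omd in the genome.

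Of the 7 elastic fiber and microfibril genes, 4 were higher in all pairs, and the group medians were 0.30, 0.33 and 1.07. Mfap4, a microfibril-associated glycoprotein that binds elastin and collagen, had log2 ratios of 1.04, 0.21 and 1.83 (mean 1.03 ± 0.81 SD). Its normalized log2 intensity was 9.46, 9.80 and 9.18 in the RNAs labeled RANK+/+ and 10.51, 10.01 and 11.01 in those labeled RANK-/-. Mfap2 and Mfap5, glycoproteins bound to fibrillin microfibrils, had log2 ratios of 0.30, 0.77 and 1.48, and of 0.13, 0.33 and 1.06. The dimmer probe of Mfap2 gave 0.11, 0.67 and 0.86. Fbln1, a fibulin of elastic fibers and basement membranes, had log2 ratios of 0.24, 0.68 and 0.53 by its brighter probe (SD 0.22) and of 0.50, 0.45 and 0.00 by the other. The groups did not overlap for Mfap2, Mfap4 and Fbln1. Fbln2 had log2 ratios of 0.84, 0.70 and -0.04, and Fbn1, fibrillin 1, had -0.05, -0.46 and 1.35. Eln, the elastin gene, had log2 ratios of 1.46, -1.44 and -1.53, with levels of 8.05, 10.03 and 10.38 in the RNAs labeled RANK+/+ and 9.51, 8.59 and 8.85 in those labeled RANK-/-. Eln was the only member 2-fold or more lower in pair 3.

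Among the 5 processing and crosslinking genes, Pcolce, Loxl1 and Loxl2 were higher in all pairs, with group medians of 0.01, 0.49 and 1.06. Pcolce, which enhances the cleavage of procollagen C-propeptides, had log2 ratios of 0.15, 1.14 and 2.03 (mean 1.11 ± 0.94 SD). Its normalized log2 intensity was 13.48, 12.52 and 11.95 in the RNAs labeled RANK+/+ and 13.63, 13.66 and 13.98 in those labeled RANK-/-, so that the groups did not overlap. The lysyl oxidase Loxl1 had log2 ratios of 0.26, 0.49 and 1.36 by its brighter probe and 0.14, 0.49 and 1.17 by the other. Loxl2 had 0.01, 0.07 and 1.06 by its brightest probe, but its other 2 probes were at -0.68 and -0.69 in pair 1. Lox itself had log2 ratios of -0.22, 0.49 and 0.68 by its brighter probe and of -0.72, 0.80 and 0.66 by the other. Serpinh1, the collagen chaperone of the endoplasmic reticulum, had -0.59, 0.58 and -0.50.

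The window of Pcolce (minus strand, GRCm38.p6, chr5:137611405-137611654) is shown as well. Among the genes higher in all pairs that have a window, only Col1a2 had a higher mean ratio:
Pcolce: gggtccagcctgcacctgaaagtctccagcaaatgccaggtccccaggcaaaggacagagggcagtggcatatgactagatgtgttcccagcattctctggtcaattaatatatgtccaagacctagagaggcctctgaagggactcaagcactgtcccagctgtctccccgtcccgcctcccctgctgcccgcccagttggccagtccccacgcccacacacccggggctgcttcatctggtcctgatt
None of the 3 motifs was in it, so that it has no capitals.

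The 5 fibroblast surface and secreted markers had medians of 0.16, 0.20 and 1.26, and Pdgfra alone was higher in all pairs. Pdgfra, a receptor for platelet-derived growth factor on fibroblasts, had log2 ratios of 0.16, 0.20 and 1.26. Pdgfrb, the related receptor of fibroblasts and pericytes, had log2 ratios of 1.60, -1.03 and 0.76. Its levels were 7.95, 9.99 and 9.29 in the RNAs labeled RANK+/+ and 9.56, 8.96 and 10.04 in those labeled RANK-/- (normalized log2 intensity), so that the groups overlapped. Fap, fibroblast activation protein, had log2 ratios of -0.00, 0.86 and 1.82. Thy1, a surface glycoprotein of fibroblasts, had 0.56, -0.29 and 1.18. Serpinf1, which encodes the secreted pigment epithelium-derived factor, had -0.01, 0.82 and 1.46 by its brighter probe and -0.61, 0.85 and 1.02 by the other.

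The 46 genes did not share 1 pattern. Beside the 17 higher and 1 lower in all pairs, 10 genes were lower in pair 1 and higher in pairs 2 and 3, a pattern shown by 13.5% of all genes: Col3a1, Col14a1, Fn1, Dcn, Lum, Bgn, Ogn, Lox, Fap and Serpinf1. Another 10 were higher in pairs 1 and 3 and lower in pair 2, shown by 18.8% of all genes: Col5a2, Col5a3, Col6a1, Col8a1, Col12a1, Col15a1, Sparc, Postn, Pdgfrb and Thy1. By sign alone, genes of 1 assembly fell into different patterns, as type I collagen beside type III and Col6a2 and Col6a3 beside Col6a1. Several signs rested on pair 1 ratios near 0. These were -0.08 for Col3a1, -0.02 for Ogn, -0.01 for Serpinf1, -0.002 for Fap and 0.006 for Loxl2. Other probes of Col14a1 (0.02, 0.98 and 1.39) and Sparc (0.03, 0.29 and 1.32) were higher in all pairs. The other 2 probes of Loxl2 were lower in pair 1. The highest of the 3 ratios was that of pair 3 for 36 of the 46 genes, beside 31.0% of all genes.

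In level, both RNAs of pair 3 lay at the extremes for many of the 46 genes. The RNA labeled RANK-/- of pair 3 had the highest level of the 6 RNAs for 33 of the 46 genes (19.2% of all genes), and the RNA labeled RANK+/+ of pair 3 had the lowest for 28 (18.2% of all genes). The RNA labeled RANK+/+ of pair 1 had the highest level for 4 genes and the lowest for 11, for which the share of all genes was not computed. Without the pairing, the 3 RNAs labeled RANK-/- lay above the 3 labeled RANK+/+ without overlap for 10 of the 46 genes (Col1a1, Col1a2, Col6a2, Col6a3, Thbs2, Fmod, Fbln1, Mfap2, Mfap4 and Pcolce), beside 3.69% of all genes. They lay below for Ctgf, beside 3.77% of all genes.

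**Figure D3:**
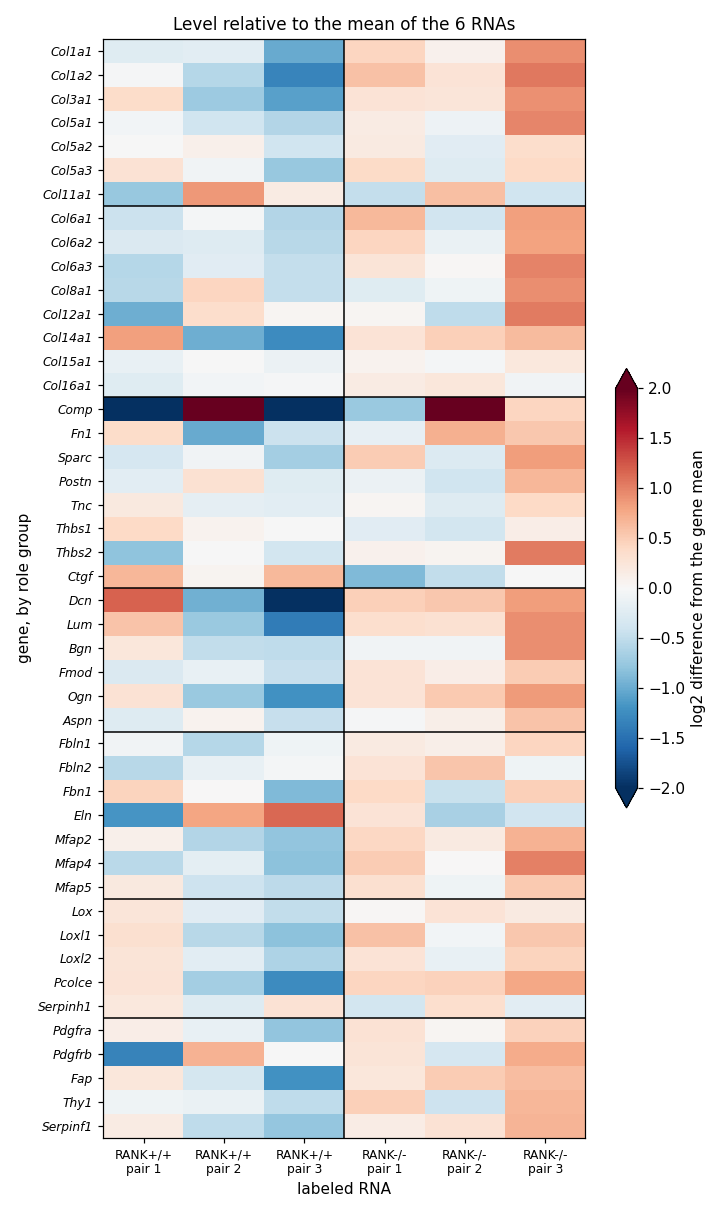
Normalized log2 intensity of the 46 genes (rows, with lines between role groups) in the 6 labeled RNAs (columns), each as the difference from the gene's mean over the 6 RNAs; the color scale ends at -2 and 2, which Comp exceeds in 4 RNAs and Dcn in 1. The RNA labeled RANK-/- of pair 3 holds the highest level for 33 genes and the RNA labeled RANK+/+ of pair 3 the lowest for 28.

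Other genes that make, bind or accompany the same matrix were counted by list. For comparison, 9.95% of all genes tested were higher and 9.65% lower in all pairs. At an unadjusted limma p under 0.05, 1.66% of all genes were higher and 1.22% lower. Of 19 collagen biosynthesis enzymes, all tested, 3 were higher and 2 lower in all pairs and none was called by limma (1 had an unadjusted p under 0.05), with medians of 0.04, 0.18 and 0.06. Their mean log2 ratios ran from -0.37 for P4ha2, a collagen prolyl hydroxylase, to 0.64 for Adamts2, the procollagen N-proteinase. Of 17 collagen and matrix receptors, 15 were tested, 1 was higher and 2 were lower in all pairs, with medians of -0.11, -0.12 and 0.18. The lowest mean was that of Sdc1, syndecan 1 (-0.64), and the highest that of Ddr2, a collagen receptor of fibroblasts (0.85). Of 29 other fibroblast genes, 28 were tested and 4 were higher in all pairs, with medians of -0.11, 0.57 and 1.14. Their mean log2 ratios ran from -1.14 for Gli1, a transcription factor of hedgehog signaling, to 1.41 for Pi16, a marker of adventitial fibroblasts. Of 20 cartilage and tendon genes, 15 were tested, with 1 higher and 2 lower in all pairs and medians of 0.57, -0.04 and 0.23. Limma called none of the receptor, fibroblast or cartilage genes (1, 2 and 1 with an unadjusted p under 0.05).

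Markers of other cell types also differed between the RNAs, and their part in the ratios of the matrix genes was not tested. The luminal, endothelial and adipocyte lists had their highest median ratio in pair 3, as the matrix genes did. The pericyte and smooth muscle, leukocyte and basal lists did not. The 15 luminal and pan-epithelial genes, all above background on every array, had median log2 ratios of 0.27, -0.54 and 0.48. Their summed normalized intensity was 204000 to 529000 in the RNAs labeled RANK-/- and 237000 to 347000 in those labeled RANK+/+. The 11 pericyte and smooth muscle genes had medians of 0.65, -0.60 and 0.16, and sums of 34100 to 45600 against 23800 to 48000. Both this list and the luminal list had the signs of Pdgfrb, a pattern shown by 18.8% of all genes. The 14 endothelial genes tested of 15 had medians of -0.01, -0.18 and 0.60 and sums of 6770 to 8750 against 6000 to 8740. The 10 leukocyte genes tested of 12 had medians of -0.61, 0.22 and 0.20. Their sum was 6000 in the RNA labeled RANK+/+ of pair 1, the highest of the 6, against 2040 and 2630 in the others labeled RANK+/+ and 2680 to 4040 in those labeled RANK-/-. Their signs were those of Dcn, Lum and the other genes lower in pair 1 alone, a pattern shown by 13.5% of all genes. The medians of the adipocyte and other fibroblast lists had these signs too. The 8 basal genes, of which Acta2, Myh11 and Cnn1 are also on the pericyte and smooth muscle list, had medians of 0.04, 0.00 and -0.07, and sums of 28500 to 33300 against 37200 to 53600. The 4 adipocyte genes tested of 9 had medians of -0.12, 0.06 and 0.61, and sums of 1470 to 2130 against 1250 to 1920. Of them Fabp4, Lpl and Pparg exceeded the background on all 6 arrays for both genotypes, while Adipoq, Plin1, Cidec and Lep did so on no array. The summed level of the 46 matrix genes themselves was 360000 to 549000 in the RNAs labeled RANK-/- and 218000 to 357000 in those labeled RANK+/+. Sums add intensities off the log scale, so that the brightest genes weigh most and a sum need not follow the median of its list. In the RNA labeled RANK-/- of pair 3, normalized log2 intensity was 18.09 for Krt18, 17.16 for Sparc and 16.53 for Col1a2.

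**Figure D4:**
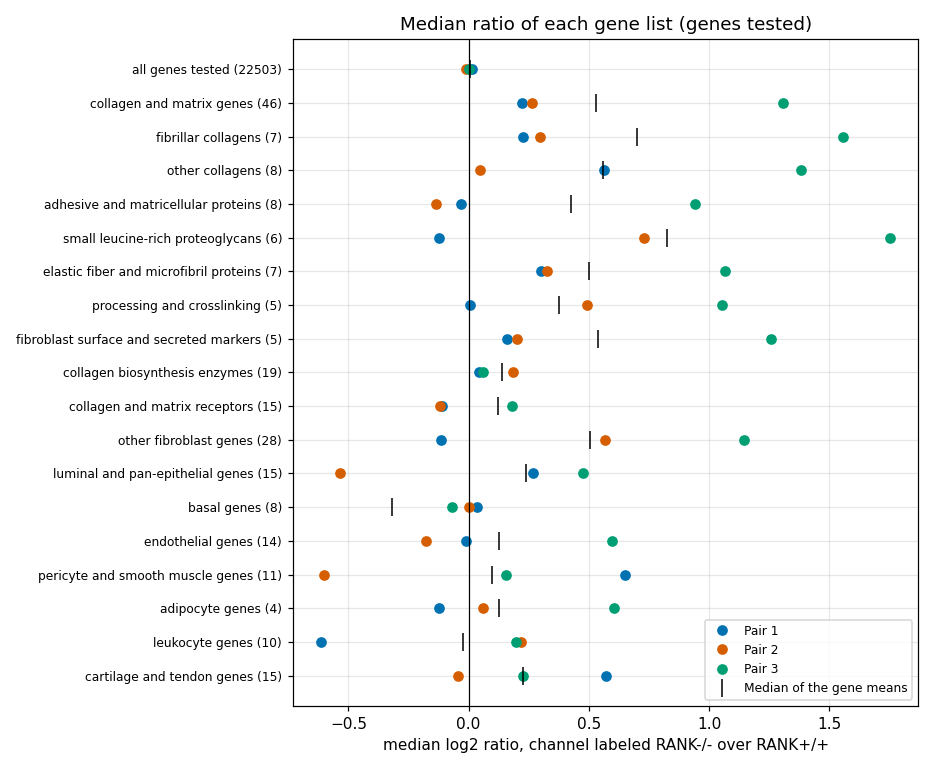
Median log2 ratio of the channel labeled RANK-/- over RANK+/+ (horizontal axis) in pairs 1, 2 and 3 (dots) for each gene list (rows, with the number of genes tested), and the median of the gene means (black ticks). For all genes the medians lie between -0.01 and 0.02, while every role group of the collagen and matrix genes lies furthest right in pair 3.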

How the data were processed

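The members and all gene lists were chosen with earlier results of these data known. The authors hybridized RNA of both genotypes to two-color Agilent mouse arrays and used Feature Extraction (version 10.7.3.1 per the submitters' processing notes) to read the spots. Deposited scanner files hold unnormalized median spot and background intensity per channel, and the deposited series table holds the authors' log2 ratios, used as an alternative only. Its direction was not stated; on every array it correlated with RANK-/- over RANK+/+ (r 0.950 to 0.963). Intensities were background-corrected in limma 3.58.1 (R 4.3.3) by normexp (offset 50), normalized by loess within arrays and by Aquantile between arrays, with control and outlier spots given no weight. Arrays A and B were averaged. Probes were named through RefSeq accessions (28026 of 55681 matched) and kept (30231) where a genotype's channel exceeded the background on arrays A and B of 2 or more pairs, with the brightest probe standing for a gene. Moderated tests used lmFit and eBayes over 3 pairs with Benjamini-Hochberg adjustment over 22503 genes; the rank product null was counted exactly. Both were tested on simulated data, in which every changed gene was shifted by more than the largest mean ratio of a member. Changes of the size reported here were not simulated. Named genes were Tnfrsf11a, Comp, members with 1 sign in all pairs, the 8 members with the largest ratio in any pair and members whose kept probes differed in the sign of their mean, of which there were none (of 11 members with several kept probes, 6 had the same sign on each probe in every pair); other members are given by role. All arrays lay on 1 slide with 1 scan date, so that neither could be tested as a batch, and the number of arrays limits the precision. The methods describe dye swaps, but per the labels no pair held one. RefSeq promoter windows (GRCm38.p6) were not set against array coordinates, which use another build.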

Additional observations from a re-analysis of the deposited data

How the results depend on the processing

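All 23 named genes kept the sign of their mean in each of the 391 values recomputed over the alternatives. For genes with 1 sign in all pairs this was fixed in advance where a pair was left out. Some alternatives changed the filter or the test alone and left these mean ratios as they were. The mean log2 ratio of Comp ranged from 1.63 to 2.37. Limma called 0 of the 46 genes under every alternative. Among the named genes Tnfrsf11a alone passed the threshold, with pairs as a random block over 6 arrays (limma adjusted p 0.0197, and 0.0609 for Comp). That fit took technical arrays as samples, with 1 correlation within pairs (0.962) for all genes. Its p-values therefore rest on replicate arrays of 3 pairs. The rank product called no member with the Agilent processed signals (0) or the deposited series table (0), or when any 1 pair was left out (0 to 0). The count of genes lower in all pairs was 2 with median centring and 2 with the deposited table, and 2 to 4 with 1 pair left out. The count of genes higher in all pairs was 13 with median centring, 14 with the processed signals, 16 to 19 with the other alternatives on 3 pairs, and 19 to 27 over the remaining pairs with 1 left out, where fewer pairs must share a sign. The median log2 ratio of the members was 0.335 to 0.744 with 1 pair left out. Under median centring it was 0.314, with the median of all genes at -0.138. Other counts and medians stayed within 1.5 times the value reported or within the spread between pairs (SD 0.614). That spread is wider than the median log2 ratio of the members itself (0.529), so that it is a loose limit for the median. Over all genes tested, the 2 RNAs of a pair shared arrays but did not deviate together from their group means (correlations of -0.034, -0.218 and -0.041 in the 3 pairs). Comp differed from this, as both RNAs of pair 2 were the brightest of their groups. Without the pairing (no replicate block, channels as 3 and 3 samples) limma called 0 members. Dim probes limit the ratio of Col15a1. Fmod was dim as well, with normalized log2 intensity from 6.36 to 7.33. Its mean log2 ratio was 0.46 without background subtraction and 1.27 with the processed signals.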
